A study of Mus musculus and synthetic construct with 21 samples.

Results

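Mixed MYB arrays are designed reporter elements that carry copies of a MYB motif together with copies of a second, different motif. Those described here pair myb with ap2, atf3, cebp, e4bp4, foxd1, foxo4, lxr, myc or vbp, and leave out the pairs of myb with ppar, fos, jun, fra1 or bach1. They were chosen by element name alone, and 243 of the 3243 elements of pool 7 met the rule. Each of the 9 pairs had 27 arrays, 1 for every combination of 3 background sequences, 3 copy numbers (2, 4 and 6, as the element names give them) and 3 arrangements (numbered 1, 2 and 3 in the names). In all 243 arrays myb was named second, so the reverse order could not be compared. What the arrangement numbers stand for is not given in the sources used here.

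The arrays were measured in a massively parallel reporter assay, in which each element drives a transcript carrying a barcode and the RNA barcodes are counted against the same barcodes in the plasmid pool. The cells were 3T3-L1, mouse pre-adipocytes that can be turned into adipocytes in culture. They were induced after confluence with dexamethasone (1 µM), IBMX (0.5 mM) and insulin (1.7 µM), were moved to serum-containing medium without these agents 48 h later, and RNA was taken 16 h after transfection. All elements shared these conditions, and the comparisons are between elements within 1 RNA library and 1 plasmid library, with no replicate of either.

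MYB is a transcription factor best known for keeping blood progenitors proliferating, and its family members bind DNA through repeats of a tryptophan-rich domain. The partner motifs belong to several classes of DNA-binding factor. ATF3, C/EBP, E4BP4 (also called NFIL3, mostly a repressor) and VBP (a relative of TEF and DBP) are basic leucine zipper factors. FOXD1 and FOXO4 are forkhead factors, and LXR is a sterol-sensing nuclear receptor that pairs with RXR. MYC binds E-boxes as a dimer with MAX, and AP-2 factors act in neural crest and epithelial tissue. C/EBP factors are the members of this set with the best-known part in adipocyte differentiation.

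The 3 background sequences are shown because every array value below is set against 1 of them. Each element name gives a 16-base sequence and its mm9 position, printed 5′ to 3′ on the named strand. Capitals mark bases that match a DR1 made of AGGTCA units (a direct repeat with a 1-base gap, the site type of PPARγ with RXR) in the best-matching window on that strand.
chromosome 13 background, chr13:46069371-46069386, plus strand: tgaAGGTCAgAGtTtA
chromosome 15 background, chr15:67824069-67824084, minus strand: agtAGGaCAggGGTtA
chromosome 9 background, chr9:66727486-66727501, plus strand: agtgGGgCAgAGGgCA
The chromosome 13 sequence matched 10 of 12 positions of the repeat and the other two matched 9 of 12 each. The annotation of these positions was not used here, and the sequences of the motif copies in the arrays are not shown because no file used here holds them.

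The pool held 9806531 RNA counts and 10179019 plasmid counts. The median plasmid count was 3223 over all elements and 1639 over the mixed MYB arrays, which ranged from 22 to 5810. They drew 1.98% of the RNA counts and 4.65% of the plasmid counts. Each array was tagged by 44 to 280 barcodes (median 137), and 0 of the 529522 barcodes in the deposited map were linked to more than 1 element. Activity below is on a log2 scale: the share of the RNA library that an element took, over its share of the plasmid library, after adding 1 to both counts. The activity of an array minus that of the element of its own background is called its value against background.

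The elements without arrays differed in activity. The chromosome 13 element had 21377 RNA and 43479 plasmid counts, an activity of -0.97. The chromosome 9 element had 19901 RNA and 50127 plasmid counts, an activity of -1.28. The chromosome 15 element had 1194 RNA and 7444 plasmid counts, an activity of -2.59. Each was measured once, so an error in 1 of them would shift all 81 arrays that share it.

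Among arrays with at least 50 plasmid counts, mixed MYB pairs were called lower than their backgrounds or not called, and none was called higher. All 9 pairs had a mean below 0, with a median of the 9 means of -1.44, against 0.59 over the 105 mixed pairs of the pool. Those 105 include 55 pairs without myb and 5 with myb that hold a PPAR or AP-1 motif. Pairs of the 9 partners with each other ran from -1.47 (ap2 with cebp) to 0.97 (e4bp4 with vbp). Most of their means were also below 0. The MYB pairs with foxd1, atf3, ap2, cebp and myc were called lower than background. The tests were 2-sided sign-flip permutation tests over matched arrays, with Benjamini-Hochberg adjustment over all 105 mixed pairs and a threshold of 0.05. Among the 105 pairs, 12 were called lower (11.4%) and 41 higher (39%), so the 9 MYB pairs held 5 of the 12 lower calls and 0 of the 41 higher calls. Arrays of a pair share 3 backgrounds and come from 1 library of each kind, so these p-values do not cover variation between cultures. All 5 calls were lost without the 6-copy arrays, and also when the 3 arrangements of a background and copy number were averaged into 1 unit. With 9 such units the adjusted exact permutation p was 0.0513 for ap2, atf3 and foxd1, 0.0586 for cebp and 0.107 for myc, and foxd1 was at the smallest unadjusted p that 9 units can give.

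The largest mean difference was that of the foxd1 pair, -2.37 ± 3.17 (SD, n = 27 arrays), lower than background in 21 arrays and higher in 6, with an adjusted permutation p of 0.0017. Atf3 with myb gave -1.98 ± 2.99 (SD, n = 27; higher in 8; adjusted permutation p = 0.0058). Ap2 with myb gave -1.96 ± 2.95 (SD, n = 27; higher in 9; adjusted permutation p = 0.0060). In all 3 pairs the spread between arrays was wider than the mean difference, and 7 of the 27 arrays had no RNA count at all. The cebp pair gave -1.89 ± 2.54 (SD, n = 27; higher in 6; adjusted permutation p = 0.0013) and the myc pair -1.44 ± 2.83 (SD, n = 27; higher in 11; adjusted permutation p = 0.0296). These means depend on the pseudocount where RNA was 0. The median over arrays, which did not move when each such array was set to the bound that 3 counts allow, was -1.28 for ap2, -1.18 for atf3, -1.0 for cebp, -0.91 for foxd1 and -0.72 for myc.

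The other 4 pairs did not pass the test at this minimum. Vbp with myb gave -1.06 ± 2.85 (SD, n = 27; adjusted permutation p = 0.108), foxo4 with myb -0.64 ± 2.06 (SD, n = 27; adjusted permutation p = 0.173) and e4bp4 with myb -0.45 ± 1.36 (SD, n = 27; adjusted permutation p = 0.150). Lxr with myb, the nearest to 0, gave -0.29 ± 1.71 over 25 arrays (adjusted permutation p = 0.521), with 13 of them above background and a median of 0.12. The 2 lxr arrays under 50 plasmid counts, both with 4 copies in the chromosome 15 background, had 0 RNA counts at 22 and 28 plasmid counts.

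The calls thinned as the plasmid minimum rose. With at least 500 plasmid counts, 179 arrays were left and 3 of the 9 pairs were called lower, against 4.76% of all pairs lower and 49.5% higher. These were foxd1, at -1.97 ± 2.98 (SD, n = 21; adjusted permutation p = 0.0019), atf3, at -1.65 ± 2.60 (SD, n = 20; adjusted permutation p = 0.0126), and cebp, at -0.86 ± 1.42 (SD, n = 18; adjusted permutation p = 0.0342). The ap2 pair kept 12 arrays and its mean was 0.18 ± 1.58, on the other side of 0 from its value at 50. The lxr pair stood at 0.36 ± 0.72 (SD, n = 20; adjusted permutation p = 0.0588).

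With at least 2000 plasmid counts, 107 arrays were left and 0 of the 9 pairs were called either way. Over all 105 pairs at that minimum, 0.952% were called lower and 56.2% higher. The lowest mean was that of atf3, -0.69 ± 1.12 (SD, n = 11; higher in 3; adjusted exact permutation p = 0.0704), the only pair of the 9 with an unadjusted p under 0.05. The cebp mean was -0.61 ± 0.93 over 7 arrays, which ran from -2.19 to 0.50 with a median of -0.43. The foxd1 mean was -0.21 ± 0.62 over 10 arrays, from -1.02 to 0.65. In these 3 pairs the deep arrays fell on both sides of background.

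The remaining means at 2000 lay between -0.44 (myc, n = 8) and 0.37 (lxr, n = 15). The foxo4 arrays were the most spread of these, from -2.27 to 1.61 over 18 arrays, 9 above background and 9 below. The e4bp4 arrays ran from -1.0 to 1.38 over 18 arrays with a mean of -0.02 ± 0.67, and the lxr arrays from -0.66 to 1.93 with 9 of 15 above background. With 7 to 18 arrays a pair, the tests at 2000 rest on fewer arrays than those at 50, and a p above the threshold does not show that a pair equals its background.

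At the low end of depth, RNA counts were often 0. Of the 243 arrays, 38 had no RNA count, 15.6% (exact binomial 95% interval 11.3 to 20.8%, counting error only). The share was 29 of 62 arrays (46.8%) at 50 to under 500 plasmid counts and 7 of 72 (9.72%) at 500 to under 2000. It was 0 of 107 at 2000 or more, where the exact interval reaches 3.39%. The median value against background was -4.35, -0.78 and -0.12 in the same 3 ranges of depth. Values more than 16-fold below background were found in 34, 14 and 0 arrays of these ranges.

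Mixed arrays with neither myb nor a PPAR or AP-1 motif, 972 arrays in 36 pairs, were counted in the same ranges of plasmid counts. They had 0 RNA counts in 47.4% of arrays at 50 to under 500 plasmid counts, in 7.21% at 500 to under 2000 and in 0 of 672 at 2000 or more. Within these ranges their arrays were somewhat deeper, with medians of 338.5 against 281.5 plasmid counts in the lowest range and 4020.5 against 3361 in the highest. Over all depths their share was 6.69%, and 69.1% of them reached 2000 plasmid counts, against 44.0% of the mixed MYB arrays. Among arrays with at least 2000 plasmid counts, the median value against background was 0.24 in that group and -0.12 in the mixed MYB arrays, and 60.7% and 45.8% of the arrays were above background. These differences between groups were not tested. In the 135 arrays of myb with a PPAR or AP-1 motif, 43.0% reached 2000 plasmid counts and 65.5% of those were above background.

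Shallow arrays had few plasmid counts behind each barcode. The median was 27.1 plasmid counts per barcode in mixed MYB arrays with at least 2000 plasmid counts, 6.50 at 500 to under 2000 and 1.71 at 50 to under 500. Arrays with 0 RNA counts had a median of 264.5 plasmid counts spread over a median of 177.5 barcodes. The part of depth in the readings below background was not tested.

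Arrays without RNA were unevenly spread over the partners. Ap2, atf3 and foxd1 had 7 each, cebp 5, myc and vbp 4 each, lxr 3, foxo4 1 and e4bp4 0. By background, 24 of the 38 lay in the chromosome 15 background, 8 in the chromosome 9 background and 6 in the chromosome 13 background. The chromosome 15 arrays were also the shallowest, with a median of 481 plasmid counts and 8 of 81 arrays at 2000 or more. The median was 2575 in the chromosome 13 background and 2553 in the chromosome 9 background. The share without RNA was 29.6% in the chromosome 15, 9.88% in the chromosome 9 and 7.41% in the chromosome 13 background. In the 2592 other mixed arrays of the pool the shares were 11.2%, 0.69% and 1.04%, so the chromosome 15 background was highest there too. Those arrays were deeper, with medians of 1031.5, 4090.5 and 3950.5 plasmid counts, and the differences were not tested.

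The 5 arrays without RNA that had the most plasmid counts were each given a limit, taking 3 RNA counts as the highest value that 0 allows. Atf3 with 2 copies in arrangement 2 of the chromosome 15 background had 1179 plasmid counts over 209 barcodes and was at least 63.1-fold lower than its background. Foxd1 with 2 copies in arrangement 3 of that background had 974 plasmid counts and was at least 52.1-fold lower. Vbp with 2 copies in arrangement 2 of that background had 854 plasmid counts and was at least 45.7-fold lower. The bounds lay further from background on the chromosome 13 sequence, whose element was more active. There, foxd1 with 4 copies in arrangement 2 had 645 plasmid counts and was at least 105.7-fold lower, and myc with 6 copies in arrangement 2 had 621 plasmid counts and was at least 101.8-fold lower. A neighbouring design read the other way: atf3 with 2 copies in arrangement 3 of the chromosome 15 background had 648 RNA counts at 1597 plasmid counts, a value of 1.34 against background.

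Leaving out the arrays without RNA, at a minimum of 50 plasmid counts, moved the 5 called means nearer to 0. The cebp pair alone was still called lower, at -0.91 over 22 arrays (adjusted permutation p = 0.0164). The foxd1 mean was -0.81 over 20 arrays (adjusted permutation p = 0.0656), and those of atf3, myc and ap2 were -0.67, -0.64 and -0.63. This choice removes arrays by their outcome and so moves means up by construction.

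High readings occurred too. Values more than 4-fold above background were found in 6 arrays at 50 to under 500 plasmid counts, in 4 at 500 to under 2000 and in 0 of 107 at 2000 or more. Among mixed MYB arrays with at least 500 plasmid counts, the highest was ap2 with 4 copies in arrangement 1 of the chromosome 15 background, with 813 RNA and 711 plasmid counts, 7.12-fold above its background. Vbp with 4 copies in arrangement 2 of that background had 453 RNA and 570 plasmid counts, 4.95-fold above. Foxo4 with 4 copies in arrangement 2 of that background had 443 RNA and 617 plasmid counts, 4.48-fold above. The best-covered of the highest arrays was lxr with 4 copies in arrangement 1 of the chromosome 9 background, with 6380 RNA and 4228 plasmid counts, 3.80-fold above. In 8 of the 9 pairs the highest array lay in the chromosome 15 background, whose own element was the least active.

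The highest arrays of the other pairs reached 3.94-fold above background for myc (679 RNA and 1074 plasmid counts), 2.99-fold for e4bp4 (385 and 802), 2.53-fold for atf3, 2.38-fold for cebp (631 and 1650) and 1.57-fold for foxd1 (556 and 2214). Among the pairs with no array at 0 RNA counts above this minimum, the lowest foxo4 array had 4 RNA and 1326 plasmid counts and the lowest e4bp4 array 4 RNA and 532 plasmid counts. They lay 42.6-fold and 17.1-fold below background, with exact binomial intervals of -7.61 to -4.37 and -6.30 to -3.05 on the log2 scale (counting error only). The lowest cebp array had 57 RNA and 1725 plasmid counts, 14.6-fold below, and the lowest ap2 array 27 RNA and 989 plasmid counts, 5.68-fold below. The lowest lxr array was close to background, with 164 RNA and 1659 plasmid counts, 1.61-fold below. In atf3, foxd1, myc and vbp the lowest array was 1 of those without RNA given above.

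More copies did not go with more activity in these pairs. Over the mixed MYB arrays with at least 50 plasmid counts, the mean against background was -0.72 ± 2.06 with 2 copies, -1.05 ± 2.55 with 4 and -2.27 ± 2.96 with 6 (SD over 81, 79 and 81 arrays). The median was -0.43, -0.32 and -1.37. In matched differences of 6 minus 2 copies, 8 of the 9 pairs had a mean below 0. The median of the 9 means was -1.45, against 1.62 over the 105 mixed pairs, those with a PPAR or AP-1 motif included. Of the 105 pairs, 1 was called lower with 6 copies (0.952%) and 53 higher (50.5%). The single pair called lower was cebp with myb, and 0 of the MYB pairs were called higher.

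In the cebp pair, 6 copies gave -3.01 ± 2.78 against 2 copies (SD, n = 9 matched arrays; lower in 7; adjusted exact permutation p = 0.0456, with 0.00391 the smallest unadjusted p that 9 differences can give). Its 6-copy arrays had 482, 57 and 53 RNA counts at 1237, 1725 and 218 plasmid counts in the chromosome 13 background. In the chromosome 9 background they had 0, 0 and 161 RNA counts at 444, 420 and 501 plasmid counts. In the chromosome 15 background they had 0, 1 and 51 RNA counts at 265, 193 and 764 plasmid counts. None of the 9 reached 2000 plasmid counts, and all 9 were below background. Its 2-copy arrays ran from -3.69 (53 RNA at 1755 plasmid counts) to 1.25 (631 RNA at 1650 plasmid counts) against background, and 4 of the 9 were above it. Without the chromosome 9, 13 or 15 background the mean was -2.66, -4.0 or -2.38 and was not called. Only 6 differences were then left, with 0.0313 the smallest unadjusted p that the exact permutation test can give.

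The lxr pair was the exception in direction, with 6 minus 2 copies at 0.90 (n = 9, not called by the exact permutation test). Its largest difference, 5.28, rests on the 2-copy array in arrangement 1 of the chromosome 15 background, with 0 RNA at 352 plasmid counts. The pair's median difference was 0.58. Its 6-copy arrays had 2863, 1628 and 1314 RNA counts at 2670, 2782 and 1842 plasmid counts in the chromosome 13 background, all above background. In the chromosome 9 background they had 867, 1189 and 810 RNA counts at 1862, 1949 and 2280 plasmid counts, 2 of them above background. In the chromosome 15 background they had 29, 5 and 267 RNA counts at 271, 186 and 808 plasmid counts, with 1 above. The 6-copy lxr arrays thus read above background in 6 of 9 cases.

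Depth fell with copy number in the mixed MYB arrays. Over all 81 arrays of each copy number, the median plasmid count was 3070 with 2 copies, 1268 with 4 and 675 with 6, and 55, 33 and 19 of 81 arrays reached 2000. Of the 81 arrays, 7, 13 and 18 had 0 RNA counts (7, 11 and 18 among those with at least 50 plasmid counts). In the other mixed arrays of the pool, those with a PPAR or AP-1 motif included, the median plasmid counts were 3583.5, 3009 and 3493.5. There 48, 52 and 12 of 864 arrays per copy number had 0 RNA counts. Among mixed MYB arrays with at least 2000 plasmid counts, the means were -0.17 ± 0.83 (SD, n = 55), -0.06 ± 0.91 (SD, n = 33) and -0.30 ± 1.22 (SD, n = 19) for 2, 4 and 6 copies. At a minimum of 500, 0 of the 8 pairs with matched arrays were called for copy number, against 0% of all pairs lower and 35.6% higher. None of the 8 had an unadjusted p under 0.05. The atf3, cebp and myc pairs kept 5, 4 and 3 matched differences, too few for the exact permutation test to give a p under 0.05. The foxd1 pair kept 6, and the smallest unadjusted p that 6 differences can give, 0.0313, would not have passed adjustment. The missing calls of these pairs at 500 therefore show nothing about copy number. The part of depth in the difference between copy numbers was not tested.

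Arrangement made no called difference. None of the 27 contrasts between 2 arrangements of a MYB pair passed the exact permutation test, at a background of 0% over 315 contrasts. The smallest unadjusted p that 9 differences can give is 0.00391, and a single contrast at that p would not pass adjustment over 315. The 0 calls therefore do not show that arrangement has no effect. None of the 27 had an unadjusted p under 0.05, against 14 of the 315. The means over arrays with at least 50 plasmid counts were -1.31 ± 2.47, -1.53 ± 2.86 and -1.21 ± 2.56 for arrangements 1, 2 and 3 (SD over 80, 80 and 81 arrays).

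Arrays of 1 motif alone, here called same-name arrays, show where the mixed pairs lie between their components. The same-name MYB arrays were shallow, with a median of 298 plasmid counts, 8 of 27 without RNA and 4 of 27 at 2000 or more. Their means against background were -0.75 ± 2.18 with 2 copies, -2.55 ± 4.04 with 4 and -3.0 ± 3.28 with 6 (SD, n = 9 arrays each). The ap2 arrays followed a like order, at -0.55, -1.28 and -3.21, as did foxd1, at -0.07, -0.68 and -1.82. The arrays of atf3 (-0.49, 0.58 and 0.70), lxr (-1.05, 0.60 and 1.09) and myc (-2.10, -0.44 and 0.99) were ordered the other way. Those of cebp (-1.27, -1.61 and -0.22), e4bp4 (-0.02, -0.23 and 1.23), foxo4 (-1.08, -0.27 and -0.30) and vbp (0.69, -1.0 and 0.40) had no steady order. These orders did not all hold at 500 plasmid counts. There foxd1 read -0.07, -0.68 and 0.39, ap2 0.11, 0.33 and -1.32, myc -0.47, -1.15 and 1.13, and lxr 0.12, 1.13 and 1.09. The atf3 order held (-0.49, 0.68 and 0.70). No 6-copy MYB array had more than 315 plasmid counts.

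Set against same-name arrays matched by background, copies and arrangement, all 9 mixed pairs had a mean below that of the partner alone, and 8 of 9 a mean above that of myb alone. Of the 18 tests, 1 was called lower and 1 higher, against 18.6% lower and 20% higher over the 210 such tests in the pool. The atf3 pair lay below the atf3 arrays by a mean of -2.25 ± 3.07 (SD, n = 27; adjusted permutation p = 0.0037). The e4bp4 pair lay above the myb arrays by 1.65 ± 3.41 (SD, n = 27; higher in 17; adjusted permutation p = 0.0473). The latter difference was 0.04 over 19 arrays when arrays without RNA were left out.

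At 500 plasmid counts the atf3 call was the only one of the 18, at -2.25 over 20 arrays (adjusted permutation p = 0.0051), against 19% lower and 14.8% higher over all tests. At 2000 there were 0 calls and 0 unadjusted p-values under 0.05 among the 18, against 17.6% lower and 12.4% higher. Only 3 or 4 MYB arrays could be matched to a pair at that depth, and all 4 MYB arrays with 2000 plasmid counts had 2 copies. With so few differences the exact permutation test cannot give a p under 0.05, so no test against myb could be called. The same holds for the myc pair against the myc arrays, with 4 differences. Against the mean of both same-name arrays, 0 of the 9 pairs and 0 of 105 pairs (0%) were called at 50 plasmid counts, with unadjusted p under 0.05 in 0 of 9 and 9 of 105.

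Exchanging myb for another partner was described from the side of each partner, without a test. At 50 plasmid counts, 8 of the 9 motifs had their lowest mean against background with myb, when compared with the same motif paired with each of the other 8. Foxo4 was the exception, with myb at rank 4 from the lowest of 9. The margin was narrow for e4bp4 (-0.45 with myb, -0.39 with the next partner) and lxr (-0.29 and -0.24). At 500 plasmid counts myb was the lowest partner for 4 of the 9 motifs (atf3, e4bp4, foxd1 and myc), and at 2000 for 2 of them (atf3 and myc). For the others at 500 it stood at rank 2 (cebp and vbp), 3 (lxr), 6 (foxo4) and 8 (ap2) from the lowest. At 2000 it stood at rank 2 (cebp, e4bp4 and lxr), 4 (vbp), 5 (foxd1), 6 (foxo4) and 7 (ap2). For atf3 at 2000 the mean was -0.69 with myb, and the other 8 partners ran from -0.26 to 0.91. For myc it was -0.44 with myb, against -0.33 to 1.08.

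The same motif names were measured in 2 other pools, in other sites, whose levels are not set against those of pool 7. In pool 6, where single motifs were placed into slots of 15 sites, myb stood 37th of 39 motif names from the highest, at -0.54 ± 0.35 against the mean of all motifs in the same slot (SD over 95 slots; lower in 91). Ap2 (-0.50), cebp (-0.40), foxd1 (-0.33), foxo4 (-0.20), atf3 (-0.18) and myc (-0.16) were also below their slot means. Lxr was close to its slot means (-0.002), while e4bp4 (0.19) and vbp (0.21) were above. In pool 5, where motif instances in sites were altered, the altered forms of myb instances read -0.73 ± 0.81 against the wt element (SD over 28 instances in 25 sites; lower in 23). All 9 partner motifs also had means below 0 when altered, from -0.17 (foxd1) to -1.46 (atf3), and myb stood at rank 13 of 40 names from the highest. Foxd1 was the highest of the 40, so a mean below 0 was shared by every motif name of that pool. Slots and instances of a site share its wild-type sequence, so they are not independent, and no test was made.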

How the data were processed

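Pool 7 was deposited as raw counts per element, summed by the authors over all barcodes of an oligo per the series' design text, with 1 RNA and 1 plasmid library. The build was mm9 and the tools were Bowtie2 2.1.0 and BWA 0.7.12, per the submitters' processing notes, which give them no role. How reads with sequencing errors were assigned is not given in the sources used here. Element names were parsed for background, motifs, copies and arrangement. The deposited barcode map linked the same number of barcodes to each of 3243 elements as the count table lists.

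Activity, pseudocount and value against background are as defined above. The main minimum was 50 plasmid counts, with 500 and 2000 beside it. No count model could be fitted without replicates. Mean matched differences were tested by 2-sided sign-flip permutation. All flips were enumerated (an exact test) for fewer than 17 differences, and 100000 were drawn for more (smallest p 1e-05), with Benjamini-Hochberg adjustment over all 105 mixed pairs, 210 same-name tests or 315 arrangement contrasts. In each pair the highest and lowest array with at least 500 plasmid counts were named, with the 5 deepest arrays at 0 RNA counts. Intervals are exact binomial at 95% and cover counting error only, since reads of 1 barcode are not independent molecules. In pool 5, 101 rows naming no element (3.00% of RNA and 4.90% of plasmid counts) were left out. The test code was checked on simulated data with independent array effects, which does not cover dependence between arrays of a pair. Alternatives were the minimum, the pseudocount, arrays with 0 RNA counts, medians, and leaving out each background, copy number or arrangement. The members, lists and tests were chosen with earlier results of these data known. Python 3.11.15, numpy 2.4.6, pandas 2.3.3 and scipy 1.17.1 were used.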

Additional observations from a re-analysis of the deposited data

How the results depend on the processing

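Of the 5 pairs called lower than background, 3 remained at 500 plasmid counts, 0 at 2000, 1 without arrays at 0 RNA counts, 2 without the chromosome 13 background, and 0 both without the 6-copy arrays and with means per background and copy number as units. The lxr mean was above 0 at 500 (0.36), at 2000 (0.37), as a median (0.12), without the chromosome 15 background (0.39) and without 2 copies (0.012), and the ap2 mean at 500 (0.18). The vbp pair became called lower without the chromosome 15 background (-1.14) and without 4 copies (-1.82). Against myb arrays, the 1 pair called higher became 0 at 500 and 2000, with a pseudocount of 5, without arrays at 0 RNA counts, with medians, without the chromosome 9 or 13 background, with means per background and copy number, without 4 or 6 copies and without arrangement 1 or 2. It became 2 with a pseudocount of 0.5 and without 2 copies, 3 without the chromosome 15 background and 4 without arrangement 3. At 2000 the e4bp4 pair had 4 differences against myb arrays, too few for a call. Against partner arrays, the 1 pair called lower became 0 at 2000, without arrays at 0 RNA counts, with means per background and copy number and without 6 copies, and 2 without 2 or 4 copies. Against the mean of both, 1 pair was called higher without arrangement 3. The 1 pair called lower for copy number became 0 at 500 and 2000, without arrays at 0 RNA counts, with medians and without each background. At 500 the cebp pair kept 4 matched differences and at 2000 it kept 0, too few for a call. Copy differences rose above 0 for vbp at 500 (0.18) and without the chromosome 9 (0.39) or 13 (0.21) background, for foxo4 at 2000 (0.32) and without the chromosome 15 background (0.11), for e4bp4 at 2000 (0.030) and for atf3 without the chromosome 13 background (0.014). Single values were followed for all 9 pairs against background and for copy number, and for the called pair alone against same-name arrays. Of these 247 values, 181 kept direction and side of the threshold, 51 lost a call in the same direction, 2 gained one and 13 changed sign. Apart from fewer arrays entering, the cause was not tested. No paired analysis was possible because there was 1 RNA and 1 plasmid library. Plasmid depth limits the 64 arrays under 500 counts most.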

Other observations

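The highest value against background of all mixed MYB arrays came from one that the 500-count rule left out. Atf3 with 6 copies in arrangement 1 of the chromosome 9 background had 2294 RNA counts at 437 plasmid counts over 231 barcodes, a value of 3.72 (exact binomial 95% interval 3.58 to 3.88, counting error only). Vbp with 4 copies in the chromosome 15 background read above background in all 3 arrangements, at 2.95, 2.31 and 2.18, with 247, 570 and 369 plasmid counts. These arrays were chosen after their values were seen. High readings were common in that background. Of the 288 other mixed arrays of the pool with 4 copies in the chromosome 15 background, 173 (60.1%) read above background. In 104 of the 288 the value was more than 4-fold above. These shares are over all depths and include pairs with a PPAR or AP-1 motif.

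At 2000 or more plasmid counts, the value against background differed by background element. The mean was -0.46 ± 0.92 in the chromosome 13 background (SD, n = 49 arrays), -0.02 ± 0.85 in the chromosome 9 background (SD, n = 50) and 0.81 ± 0.56 in the chromosome 15 background (SD, n = 8, 7 of them above 0). The order is the reverse of that of the elements' own activities, each measured once. Those activities are subtracted from every value, so arrays of equal activity would also read in this order. In the 2592 other mixed arrays of the pool, at any depth, the medians ran in the same order, at 0.33, 0.79 and 1.37. The differences between backgrounds were not tested. Among the deep mixed MYB arrays the lowest was atf3 with 6 copies in arrangement 1 of the chromosome 13 background. It had 101 RNA counts at 2239 plasmid counts, a value of -3.43.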
